A study of Saccharomyces cerevisiae BY4741 with 6 samples.

Results

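The genes of central carbon metabolism were examined in yeast cells exposed to the aminoglycoside neomycin. The set holds 57 genes of glycolysis, gluconeogenesis, fermentation, acetate metabolism, the pentose phosphate pathway, glycerol synthesis and the pyruvate dehydrogenase complex, listed by their names. Of these, 56 have a probe set named for them among the 5449 genes measured, each exactly 1. *TDH2*, an isozyme of glyceraldehyde-3-phosphate dehydrogenase, has no named probe set and was not analysed here. The cells were *Saccharomyces cerevisiae* BY4741, a haploid laboratory strain of mating type a with disrupted *HIS3*, *LEU2*, *MET17* and *URA3*. They grew in the glucose-rich medium YPD at 30 °C, and 3 cultures received 10 mg/mL neomycin sulfate for 4 h while 3 others were incubated without it. An Affymetrix Yeast Genome 2.0 array was used for the RNA of each culture. Values are log2 GCRMA signals, so that 1 unit stands for a doubling. A signal depends on the probes of its set, so that the results compare signals between arrays. Levels of different genes are only roughly comparable, and are set side by side for the background mark, the marker genes and the ranks of signal height.

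The arrays carried the marks of the strain, with *LEU2*, *MET17* and *URA3* at mean values of 4.62, 3.65 and 3.45 in untreated cells, against an array median of 8.84 to 8.93 over all probe sets. *HIS3*, of which the strain keeps a part, had an untreated mean of 10.33. Of the first 3 genes *LEU2* was the highest, and its mean of 4.68 over the 6 arrays is taken as a mark of background. *FBP1* is the only 1 of the 56 members under this mark. The 7 genes of a cells had untreated means of 9.83 to 12.61, while the 4 genes of α cells lay between 3.71 and 8.29. With neomycin all 7 genes of a cells had lower means, by a median of −0.44 on the log2 scale. Of these, 5 were separated, with each neomycin array below each untreated one. Among all genes 12.8% were separated downwards and 18.4% in either direction. *AGA2* and *ASG7* met the study's criteria for repression, as 0.367% of all genes did, with ratios of 0.518 and 0.450. The 4 genes of α cells had lower means too, by a median of −0.51, and 2 were separated. Of these, *MF(ALPHA)1* had means of 3.71 without and 3.25 with neomycin, both under the background mark. The part of the lower means of these mating-type genes in the results on the members was not tested. The correlation of untreated with neomycin arrays over the 5449 genes, which are not independent, ran from 0.979 to 0.993. Neomycin replicate 1 and untreated replicate 2 gave the highest.

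In glucose-grown yeast, sugar is phosphorylated by hexokinases and broken down by glycolysis to pyruvate. Pyruvate is then decarboxylated and reduced to ethanol, even in the presence of oxygen. A smaller part of the carbon passes through the pentose phosphate pathway, which yields NADPH and ribose phosphate, or ends as glycerol, a compatible solute and a sink for excess reducing equivalents. Acetate made from acetaldehyde is a further source of NADPH and of acetyl-CoA. Many of these steps are served by a main isozyme that is strongly expressed during growth on glucose and by a paralog that is induced by stress or when glucose is used up.

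None of the 56 measured genes of central carbon metabolism passed the adjusted test or the study's ratio criteria. Regardless of sign, their median log2 fold change was 0.123, near the 0.127 of all genes. With limma and p-values adjusted over all genes (n = 3 arrays per condition), 0 of the 56 members were called higher and 0 lower at a threshold of 0.05, where the shares of all genes were 0.422% and 0.0918%, together 0.514%. The study's criteria ask for a ratio of mean signals from 1.7 upwards or from 0.6 downwards and for a Bayesian p no higher than 0.05. By these 0 members were induced and 0 repressed, against 1.45% and 0.367% of all genes, together 1.82%. At an unadjusted p under 0.05 limma gave 3 higher members, *PKP2*, *ADH5* and *ALD5*, and 3 lower members, *RKI1*, *GPM2* and *TDH1*. Together they make 10.7% of the members, beside 13.4% of all genes, of which 5.05% were higher and 8.33% lower. The median log2 fold change of the members was 0.0004, with 28 values above and 28 below 0, while the median of all genes was −0.05, with 37.9% above and 62.1% below 0. A lower signal can stand for fewer cells that carry a transcript or for less of it in each cell, which cannot be told apart in RNA from whole cultures.

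The size of a change that remains possible differed between the members. For 48 of the 56 the 95% interval of the log2 fold change lay between −0.74 and 0.77, the values of the study's ratio limits, which held for 88.7% of all genes. The interval of the other 8 reached past one of these limits. For *HXK1*, *FBP1*, *ALD3*, *ALD4* and *TKL2* it also held 0, and for *ADH5*, *ALD5* and *PKP2* it lay above 0. For *LAT1*, *TAL1*, *ADH1*, *GPM1*, *GND1* and *TKL1* the whole interval lay within 0.25 of 0 on the log2 scale. The part of signal height or saturation in these narrow intervals was not tested.

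**Figure D1:**
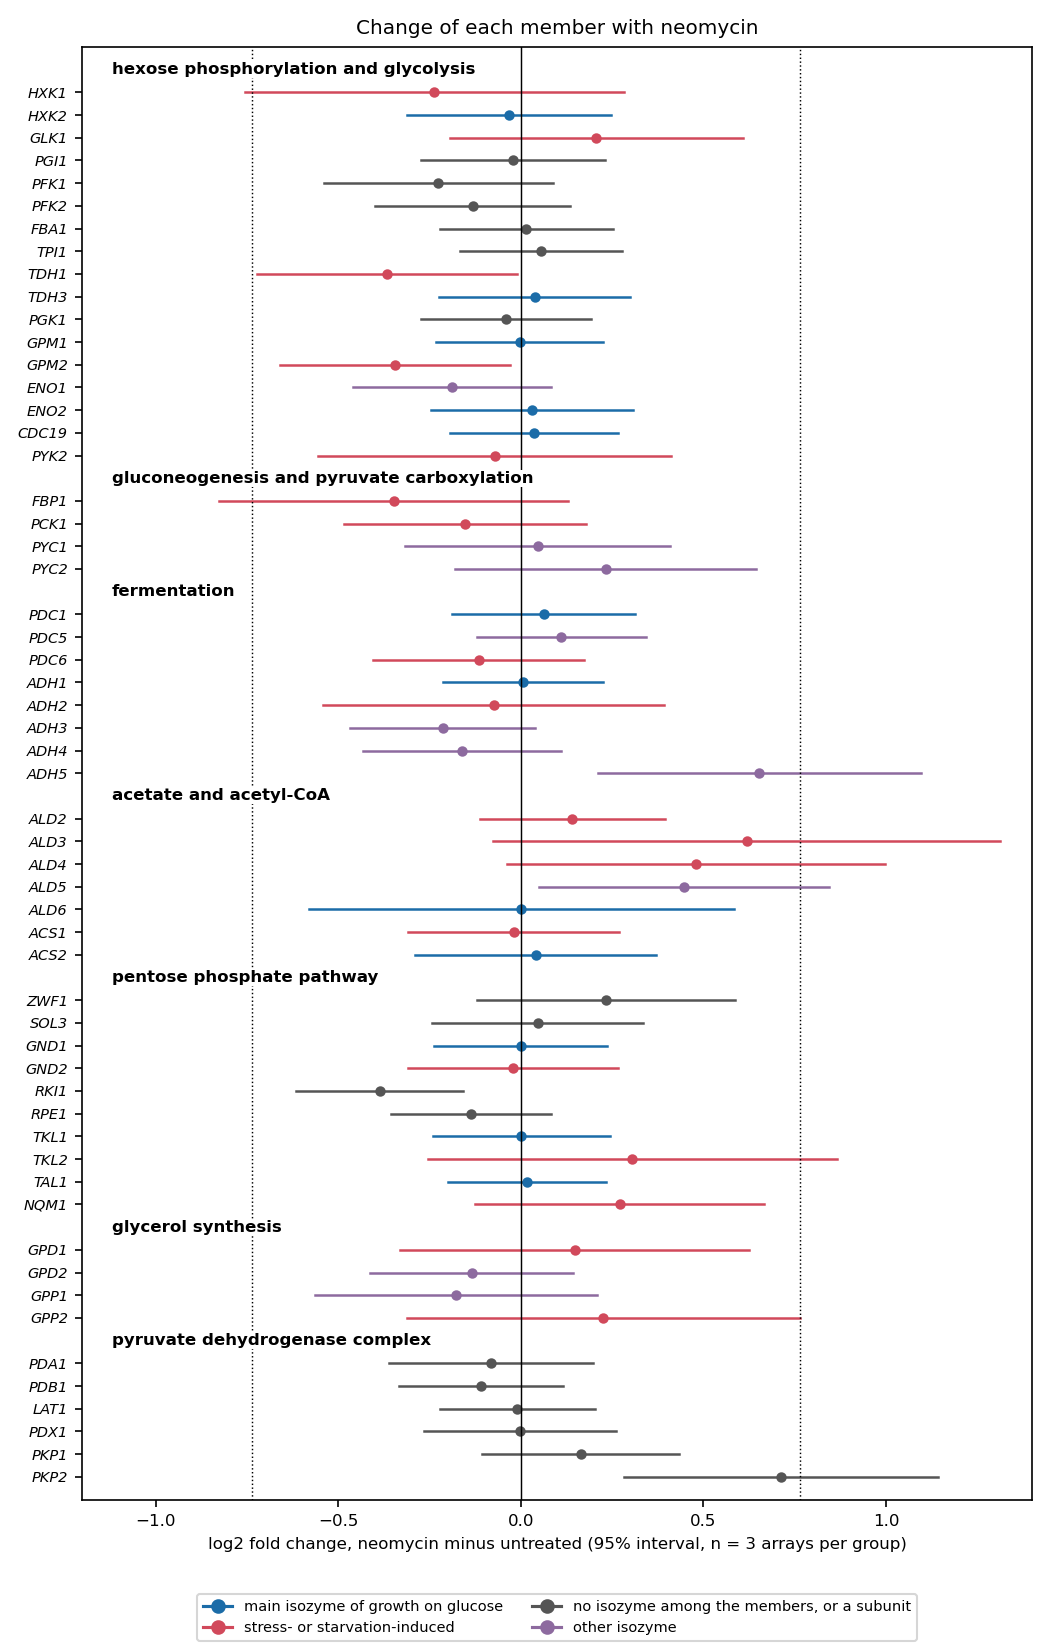
The log2 fold change of each of the 56 members (x axis, neomycin minus untreated, log2 units) is drawn as a point with its 95% interval from limma, grouped by pathway and coloured by isozyme class, and the dotted lines mark the study's ratio limits of 1.7 and 0.6. *PKP2*, *ADH5*, *ALD5*, *RKI1*, *GPM2* and *TDH1* have intervals that leave out 0, and none of them passed the adjusted test.

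On the arrays, 5 members were separated, that is, each neomycin array lay on one side of each untreated array. This is 8.93% of the members, beside 18.4% of all genes, 5.58% upwards and 12.8% downwards. *PKP2* and *ADH5* were separated upwards, and *RKI1*, *RPE1* and *ADH3* downwards. The share depended on the scaling, with 10 members separated after quantile normalisation or centring on the median, beside 18.6% and 18.2% of all genes. With 3 arrays on each side the smallest p of an exact permutation test of a single gene is 0.1.

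**Figure D2:**
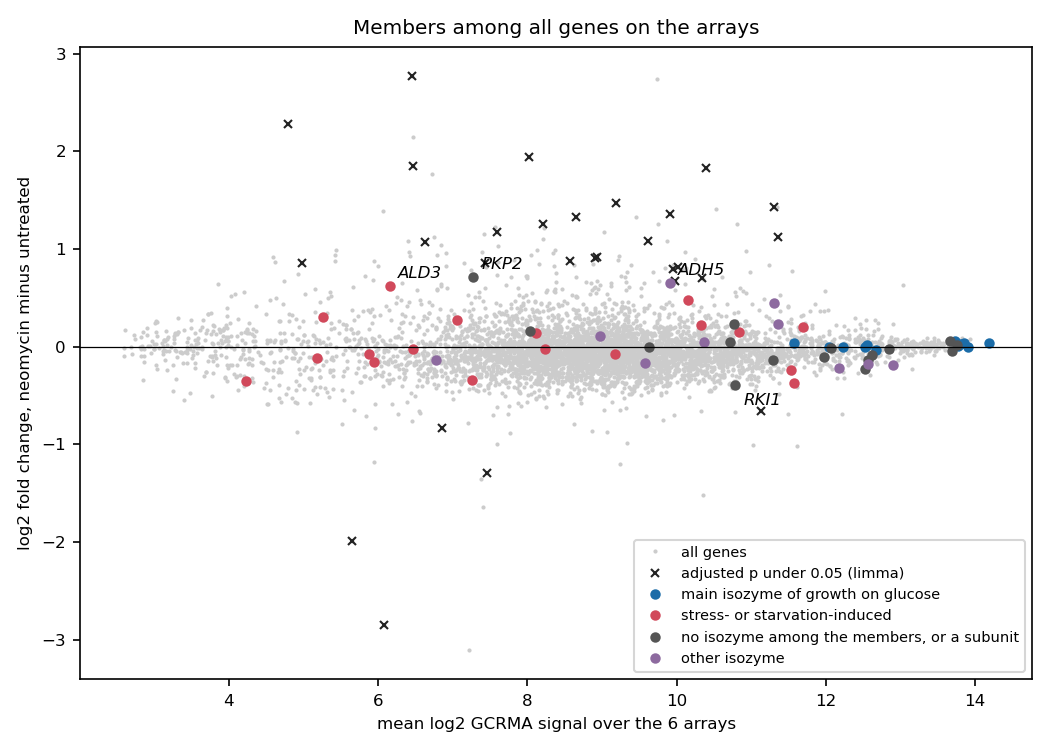
The log2 fold change of each gene (y axis, neomycin minus untreated) is plotted against its mean log2 GCRMA signal over the 6 arrays (x axis), with all 5449 genes in grey, the 28 genes past limma's adjusted test as crosses and the 56 members coloured by isozyme class. The members lie between −0.39 for *RKI1* and 0.71 for *PKP2*, and none of them is among the crosses.

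For the genes at the entry of glycolysis the groups overlapped. *HXK2*, which encodes the main hexokinase on glucose, read 12.72, 12.67 and 12.68 on the untreated and 12.70, 12.83 and 12.45 on the neomycin arrays, a log2 fold change of −0.03 (SE 0.12). *HXK1*, the hexokinase of cells on poor carbon sources, read 11.78, 11.63 and 11.55 without and 11.43, 11.90 and 10.92 with the antibiotic (−0.24, SE 0.23). Its neomycin arrays lay both above and below every untreated array, and without neomycin replicate 2 the value was −0.48. *GLK1*, the glucokinase, had a value of 0.21 (SE 0.17), which was 0.02 without neomycin replicate 2.

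Of the 17 measured genes of hexose phosphorylation and glycolysis, 6 had values above and 11 below 0, with a median of −0.03 and a range of −0.37 to 0.21. Of these 0 were separated, beside 18.4% of all genes in either direction. *TDH3*, the main glyceraldehyde-3-phosphate dehydrogenase, read 14.01, 14.29 and 14.19 in untreated and 14.31, 14.15 and 14.15 in treated cells (0.04, SE 0.11). Both groups therefore spanned nearly the same signals. Single-copy enzymes of the same stretch were as close, with log2 fold changes of −0.02 for *PGI1*, the phosphoglucose isomerase, 0.02 for *FBA1*, the aldolase, 0.06 for *TPI1*, the triose phosphate isomerase, and −0.04 for *PGK1*, the phosphoglycerate kinase. *GPM1*, the phosphoglycerate mutase, *ENO2*, the enolase of growth on glucose, and *CDC19*, the main pyruvate kinase, had values of −0.0032, 0.03 and 0.04, with standard errors of 0.10, 0.12 and 0.10. *TDH3* had the highest mean signal of all genes, and the part of saturation in these small values was not tested.

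The genes of phosphofructokinase, the enzyme that commits sugar to glycolysis, had values of −0.23 (SE 0.14) for *PFK1*, its α subunit, and −0.13 (SE 0.12) for *PFK2*, its β subunit. *PFK1* read 12.64, 12.61 and 12.66 without and 12.37, 12.68 and 12.19 with neomycin. Neomycin replicate 2 alone lay above the untreated arrays for *PFK1* as well as for *PFK2*. Without that array both genes were separated downwards, where 35.4% of all genes were separated in either direction.

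The lowest values of the pathway were those of *TDH1* and *GPM2*. *TDH1*, the glyceraldehyde-3-phosphate dehydrogenase of stressed and resting cells, read 11.77, 11.51 and 12.005 without and 11.58, 11.21 and 11.39 with neomycin (−0.37, SE 0.15, limma adjusted p = 0.364). Neomycin replicate 1 lay above the lowest untreated array, so that the groups overlapped. *GPM2*, a paralog of the mutase gene, read 7.50, 7.56 and 7.23 without and 6.92, 7.27 and 7.06 with neomycin (−0.34, SE 0.14, adjusted p = 0.347). Here too a single pair of arrays overlapped, neomycin replicate 2 and untreated replicate 3. *ENO1*, enolase I, had a value of −0.19 (SE 0.12), and *PYK2*, the pyruvate kinase repressed by glucose, of −0.07 (SE 0.21).

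Among the genes of gluconeogenesis, *FBP1* was near background in both groups. *FBP1*, the fructose-1,6-bisphosphatase, read 4.86, 4.17 and 4.19 without and 4.00, 4.32 and 3.85 with the antibiotic. Both of its means lie under the background mark of 4.68, so that its log2 fold change of −0.35 (SE 0.21) compares signals of background height. *PCK1*, the phosphoenolpyruvate carboxykinase, had means of 6.02 ± 0.26 (SD, n = 3) and 5.87 ± 0.09. The pyruvate carboxylase genes, which refill the citric acid cycle, had values of 0.05 (SE 0.16) for *PYC1* and 0.23 (SE 0.18) for *PYC2*. *PYC2* read 11.77 and 11.59 on neomycin replicates 2 and 3, above all untreated arrays, but 11.07 on replicate 1, below them, and without that array its value was 0.44 (adjusted p = 0.148 from limma).

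In fermentation, *ADH5*, a minor alcohol dehydrogenase, stood apart from the other 7 genes. It read 9.77, 9.61 and 9.36 on the untreated and 10.01, 10.65 and 10.04 on the neomycin arrays, so that all treated cultures lay above all untreated ones. The ratio of mean signals was 1.60 and the log2 fold change 0.65 (SE 0.19, limma adjusted p = 0.231). Over the alternatives its adjusted p ran from 0.118 to 0.643, and its ratio passed the study's criteria in 3 of the 6 fits that left out an array, at 1.71 when untreated replicate 1 was left out, 1.72 when neomycin replicate 1 was and 1.71 when neomycin replicate 3 was.
For the main enzymes of ethanol production the values were near 0. *PDC1*, the main pyruvate decarboxylase, and *ADH1*, the main fermentative alcohol dehydrogenase, had values of 0.06 (SE 0.11) and 0.0065 (SE 0.10). Of the minor decarboxylases, *PDC5* had a value of 0.11 (SE 0.10) and *PDC6*, known for its induction under sulfur limitation, of −0.12 (SE 0.13). *ADH2*, the glucose-repressed enzyme that oxidises ethanol, had means of 5.92 ± 0.14 without and 5.85 ± 0.42 with neomycin, and its treated arrays ran from 5.39 to 6.23, on both sides of all untreated values. *ADH3*, the mitochondrial enzyme, read 12.30, 12.23 and 12.32 in untreated and 12.05, 12.22 and 11.93 in treated cells. It was separated downwards by the narrow gap between neomycin replicate 2 and untreated replicate 2, with a value of −0.21 (SE 0.11, adjusted p = 0.456). *ADH4* had a value of −0.16 (SE 0.12).

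The aldehyde dehydrogenases, which make acetate from acetaldehyde, had the highest median among the pathways. Of the 7 genes of acetate and acetyl-CoA synthesis 6 were above 0 and the median was 0.14, but 0 were separated and 0 passed the adjusted test. Among all genes 18.4% were separated and 0.514% passed that test. *ALD3*, a cytosolic isozyme induced by stress, read 6.03, 5.58 and 5.95 without and 5.73, 6.68 and 7.001 with neomycin. Replicates 2 and 3 thus lay above all untreated arrays and replicate 1 among them, and the value was 0.62 (SE 0.30, adjusted p = 0.420, ratio 1.62). Without neomycin replicate 1 the value was 0.99 and *ALD3* passed, with an adjusted p of 0.0289 from limma, while without neomycin replicate 3 the value was 0.35 and the adjusted p 0.784.
*ALD2*, its tandem neighbour and close paralog, had a value of 0.14 (SE 0.11). *ALD5*, a mitochondrial isozyme, read 11.16, 10.87 and 11.22 without and 11.20, 11.80 and 11.59 with neomycin (0.45, SE 0.17, adjusted p = 0.338). Only neomycin replicate 1, between the untreated arrays, kept its groups from being separated. *ALD4*, the main mitochondrial isozyme, read 9.85, 10.26 and 9.61 without and 10.27, 10.82 and 10.08 with neomycin (0.48, SE 0.22, adjusted p = 0.404), its neomycin replicate 3 lying below untreated replicate 2.
*ALD6*, the main cytosolic isozyme and a source of NADPH, had the same mean of 12.23 in both groups. It read 11.72 on untreated replicate 3 and 11.80 on neomycin replicate 3, and from 12.39 to 12.52 on the other 4 arrays. Its interval of −0.58 to 0.58 is therefore wide for a gene with a log2 fold change of 0.0009. The acetyl-CoA synthetases had values of −0.02 (SE 0.13) for *ACS1*, repressed by glucose, and 0.04 (SE 0.14) for *ACS2*, the isozyme of growth on glucose.

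**Figure D3:**
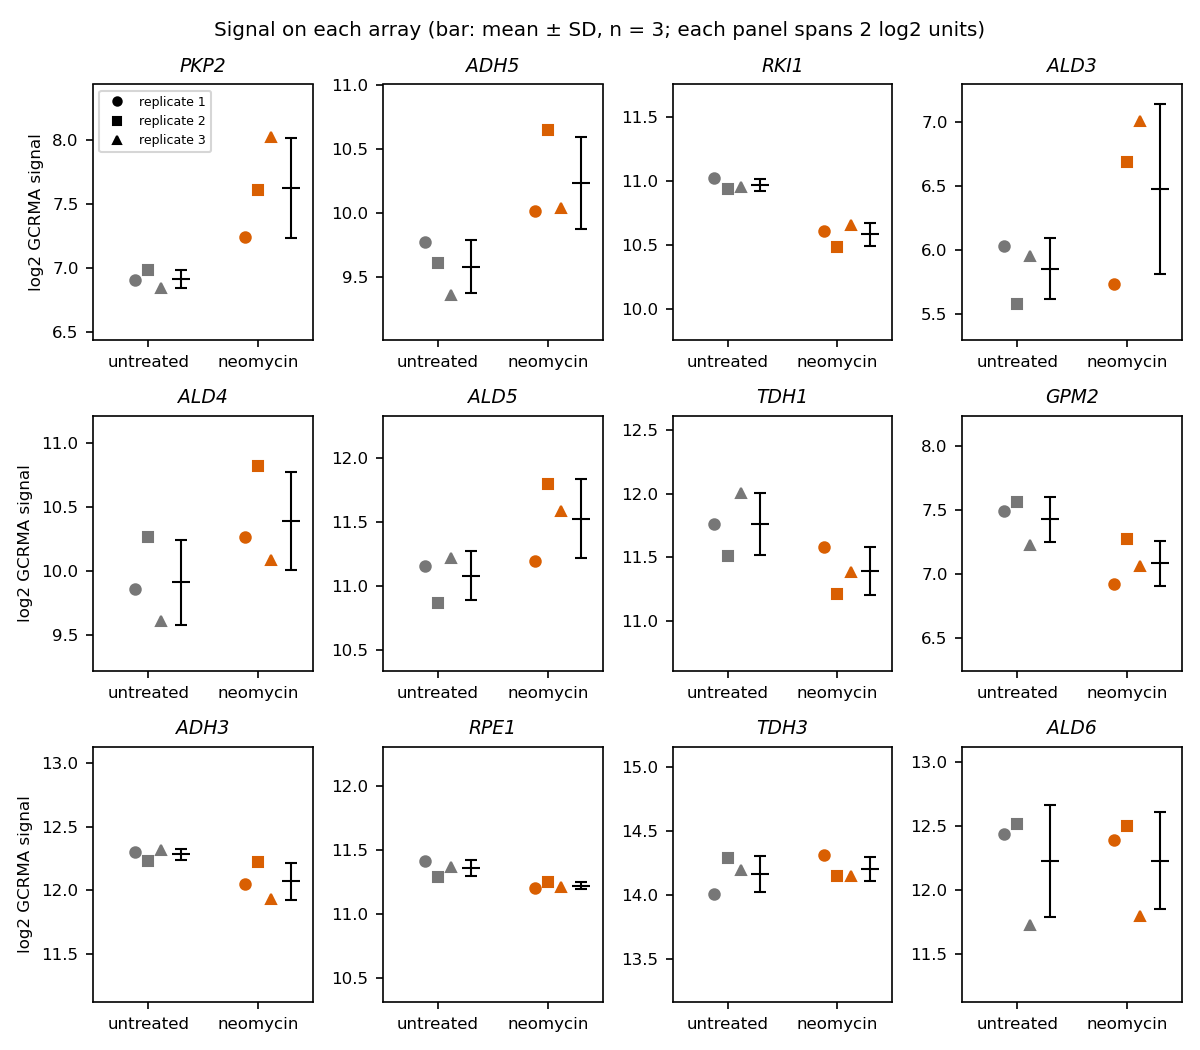
The log2 GCRMA signal (y axis) of 12 members is shown on each untreated (grey) and neomycin (orange) array, with symbols for the replicate number and a bar for mean ± SD (n = 3), each panel spanning 2 log2 units. *PKP2*, *ADH5*, *RKI1*, *RPE1* and *ADH3* do not overlap between the groups, while *ALD3* has neomycin replicate 1 among its untreated arrays and *ALD6* has its lowest values on the replicate 3 array of both groups.

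In the pentose phosphate pathway the largest difference was that of *RKI1*, the ribose-5-phosphate isomerase of the non-oxidative branch. It read 11.03, 10.94 and 10.96 on the untreated and 10.62, 10.49 and 10.66 on the neomycin arrays, and the gap between the groups was wider than the range within either. Its ratio was 0.766 and its log2 fold change −0.39 (SE 0.10), with an adjusted p of 0.179, the lowest among the members. Over the alternatives its adjusted p ran from 0.0878 to 0.527. *RPE1*, the ribulose-5-phosphate epimerase that acts beside it, read 11.41, 11.29 and 11.37 without and 11.20, 11.25 and 11.21 with neomycin (−0.14, SE 0.09).
The oxidative branch, which makes NADPH, had values of 0.23 (SE 0.15) for *ZWF1*, the glucose-6-phosphate dehydrogenase, 0.05 (SE 0.13) for *SOL3*, the lactonase, and −0.0002 (SE 0.10) for *GND1*, the main 6-phosphogluconate dehydrogenase. *ZWF1* was above all untreated arrays on neomycin replicates 1 and 2, at 10.83 and 11.21, and within them on replicate 3, at 10.62. The main transketolase and transaldolase genes, *TKL1* and *TAL1*, had values of 0.0019 (SE 0.11) and 0.02 (SE 0.09). Among their minor paralogs, *TKL2* read 5.24, 4.69 and 5.41 without and 4.99, 5.79 and 5.49 with neomycin (0.31, SE 0.24), *NQM1* 6.98, 6.88 and 6.92 and then 6.88, 7.13 and 7.58 (0.27, SE 0.17), and *GND2* had a value of −0.02 (SE 0.12). For *TKL2* and *NQM1* the high values came from neomycin replicates 2 and 3, with replicate 1 inside the untreated range. Without replicate 1 their values were 0.52 and 0.43, while *TKL2* was at 0.093 without untreated replicate 2 and *NQM1* at 0.080 without neomycin replicate 3.

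None of the 4 glycerol genes was separated, beside 18.4% of all genes. *GPD1*, the glycerol-3-phosphate dehydrogenase that osmotic stress induces, read 11.02, 10.84 and 10.42 without and 11.02, 11.18 and 10.53 with neomycin (0.15, SE 0.21). *GPP2*, the phosphatase induced by osmotic stress, read 10.62, 10.20 and 9.81 and then 10.83, 10.28 and 10.20 (0.23, SE 0.23). Leaving out single arrays took *GPP2* from 0.028 without untreated replicate 3, and 0.031 without neomycin replicate 1, up to 0.43 without untreated replicate 1. Their partners, *GPD2*, which responds to lack of oxygen, and *GPP1* had values of −0.13 (SE 0.12) and −0.18 (SE 0.17). In all 4 genes the lowest array of each group was its replicate 3.

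The pyruvate dehydrogenase complex joins glycolysis to the mitochondrial citric acid cycle, and its kinases switch it off by phosphorylation. *PKP2*, which encodes one of these kinases, had the largest difference of all members. It read 6.91, 6.99 and 6.85 on the untreated arrays and 7.24, 7.62 and 8.03 on the neomycin arrays, so that each treated culture was higher, by 0.33, 0.70 and 1.11 over the untreated mean. The spread between the treated cultures, with an SD of 0.39, was larger than that of 0.07 between the untreated ones. The ratio of mean signals was 1.68, just under the study's limit of 1.7, with a log2 fold change of 0.71 (SE 0.19, limma adjusted p = 0.181). Without neomycin replicate 1 the value was 0.91 and *PKP2* passed, with an adjusted p of 0.0243, while without untreated replicate 3 the adjusted p was the highest, 0.559.
*PKP1*, the other kinase gene, had a value of 0.16 (SE 0.12), with neomycin arrays of 8.06 to 8.16 and untreated arrays of 7.75 to 8.07. The subunits of the complex itself differed less, with values of −0.08 for *PDA1* and −0.11 for *PDB1*, which form its E1 enzyme, −0.0088 for *LAT1*, the acetyltransferase core, and −0.0015 for *PDX1*, the protein that binds E3. *LAT1* kept within 12.03 to 12.11 on all 6 arrays.

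Main isozymes and inducible genes were then set beside each other, to compare their response to neomycin. Among the 12 measured main isozymes the log2 fold change ran from −0.03 to 0.06 around a median of 0.01, with 0 separated. The 18 genes classed as induced by stress or starvation had a median of −0.02 and a range of −0.37 to 0.62. Of these too 0 were separated, beside 18.4% of all genes in either direction. This class includes *FBP1* and *PCK1*, which have no partner isozyme among the members, and *ALD4*, the main mitochondrial isozyme. Replicates of the 18 genes also scattered more, with a median pooled SD of 0.286 on the log2 scale against 0.0989 for the main isozymes and 0.158 for all genes. The main isozymes were among the brightest genes, at a median percentile of 98.3 of all genes by mean signal, and the inducible ones among the dimmer, at 22.8. The part of signal height or saturation in this contrast was not tested. The inducible genes had medians of −0.08, 0.18 and −0.08 on neomycin replicates 1, 2 and 3 relative to the untreated mean, so that treated cultures fell on both sides of 0.

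For each of 19 pairs the difference between 2 isozymes was formed on every array and compared between the groups with a 2-sided exact permutation test. The mean difference was above 0 in 9 pairs and below 0 in 10. No pair was separated, the smallest p was 0.2 and the smallest adjusted over the 19 pairs was 0.543, the least possible p being 0.1. The largest difference was that of *ALD3* over *ALD6*, 0.62 with a 95% interval of −1.15 to 2.38. *ALD4* over *ALD6* followed with 0.48 (−0.07 to 1.03), *TDH1* against *TDH3* with −0.41 (−0.95 to 0.14) and *GPP2* over *GPP1* with 0.40 (−0.11 to 0.91).
Of these, *ALD4* over *ALD6* was 0.20, 0.63 and 0.61 on the neomycin arrays and −0.27, 0.06 and 0.20 on the untreated arrays relative to the untreated mean, so that neomycin replicate 1, just under untreated replicate 3, alone kept the groups from being separated. The pairs with the narrowest intervals were *PDC5* over *PDC1*, at 0.05 (−0.20 to 0.29), and *ENO1* against *ENO2*, at −0.22 (−0.47 to 0.04). For *HXK1* against *HXK2* and *GLK1* over *HXK2* the differences were −0.21 and 0.24, for *GPM2* against *GPM1* −0.34, for *PYK2* against *CDC19* −0.11 and for *PDC6* against *PDC1* −0.18. Those of *ADH2*, *ACS1* and *GND2* against *ADH1*, *ACS2* and *GND1* were −0.08, −0.06 and −0.02, and that of *ALD2* over *ALD6* was 0.14. Those of *TKL2*, *NQM1* and *GPD1* over *TKL1*, *TAL1* and *GPD2* were 0.30, 0.25 and 0.28, and that of *PYC1* against *PYC2* was −0.19. The paralogs share much of their sequence. None of the 56 probe sets carries the suffix by which the array marks sets shared between transcripts, which 128 of the 5498 named probe sets do, but the probes themselves were not examined here.

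**Figure D4:**
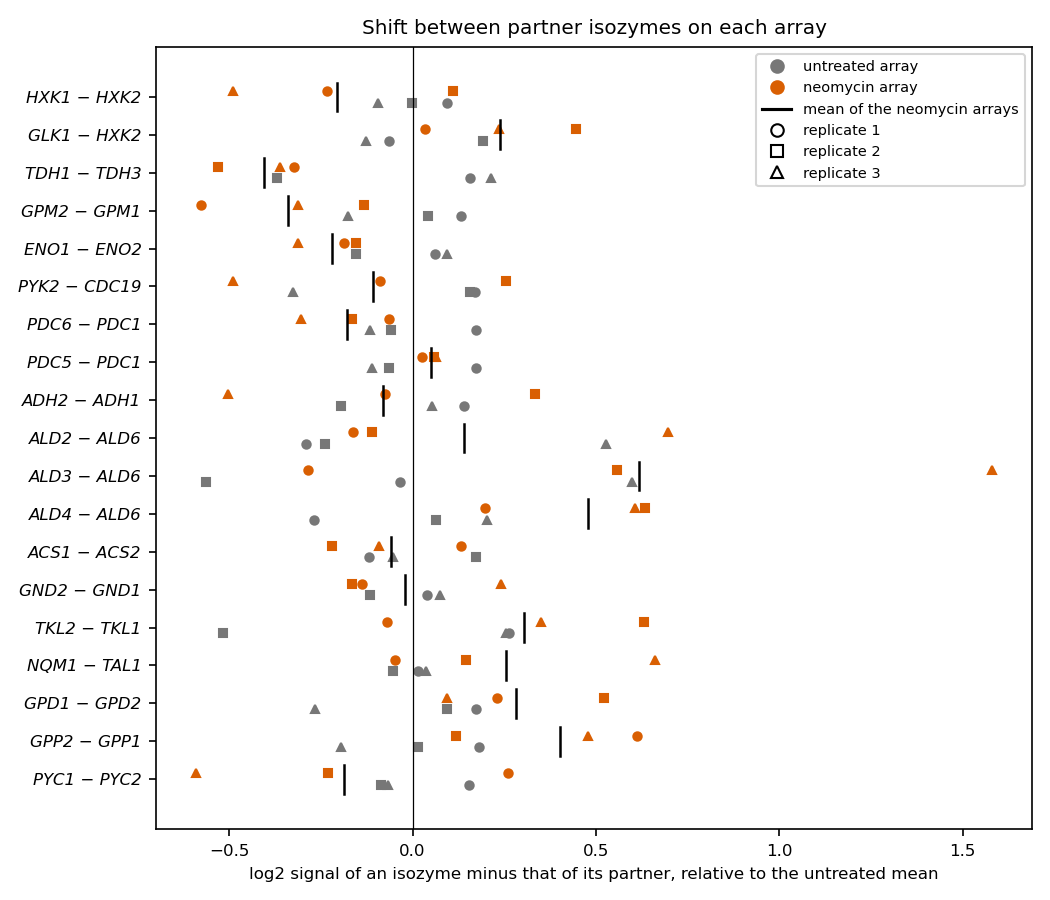
For each of the 19 pairs, the log2 signal of an isozyme minus that of its partner (x axis, log2 units relative to the untreated mean) is shown on each untreated (grey) and neomycin (orange) array, with a black line at the mean of the 3 neomycin arrays and symbols for the replicate number. The groups overlap in every pair, and the widest scatter is that of *ALD3* − *ALD6*.

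The array with the highest or lowest value differed between the members. The highest of the 6 values fell on neomycin replicates 1, 2 and 3 in 11, 21 and 5 members and on untreated replicates 1, 2 and 3 in 6, 9 and 4. The lowest fell on the neomycin replicates in 9, 4 and 15 members and on the untreated ones in 12, 4 and 12. Of the 12 main isozymes, 7 had their lowest value on untreated replicate 1 and 5 their highest on neomycin replicate 1, namely *TDH3*, *ENO2*, *CDC19*, *PDC1* and *ADH1*. The replicate 3 array was the lowest of both groups in 16 members, including *ALD6*, *PYK2*, *HXK1*, *GPD1* and *GPP1*. The labels name no batch behind these numbers, and the part of culture or array in them was not tested.

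Outside the members, 36 further enzymes and transporters of the same pathways gave 0 higher and 0 lower genes in limma's adjusted test and a median log2 fold change of 0.02. Of these, 8 were separated, which is 22.2% beside 18.4% of all genes. The genes named next were picked out after their values were seen. *MPC3*, a subunit of the mitochondrial pyruvate carrier, read 7.43, 6.82 and 6.31 without and 7.85, 7.58 and 7.49 with neomycin (0.79, SE 0.26, adjusted p = 0.275). It was the largest value in this list, and its untreated arrays spread more widely than its treated ones. *MPC2*, another subunit, had a value of 0.29 (SE 0.12), and *MPC1* of 0.03 (SE 0.10).
The genes of phosphoribosyl pyrophosphate synthetase, which uses the ribose-5-phosphate that *RKI1* makes, were all below 0, beside 62.1% of all genes. *PRS3* read 11.16, 10.97 and 11.36 without and 10.76, 10.92 and 10.82 with neomycin (−0.33, SE 0.13). *PRS2* and *PRS5*, with values of −0.26 and −0.29, were separated downwards as well, while *PRS1* (−0.21) and *PRS4* (−0.33) overlapped. Among all genes 12.8% were separated downwards, and any link of these genes to *RKI1* was not tested. *FBP26*, a fructose-2,6-bisphosphatase, read 8.08, 8.22 and 7.90 and then 8.38, 8.59 and 8.57 (0.45, SE 0.12, adjusted p = 0.191). *PFK27*, a kinase that makes fructose-2,6-bisphosphate, the activator of phosphofructokinase, had the lowest value of the list, −0.57 (SE 0.30), with overlapping arrays. *GCY1*, a glycerol dehydrogenase, had a value of 0.52 (SE 0.16), *GUT2*, the mitochondrial glycerol-3-phosphate dehydrogenase, of 0.54 (SE 0.22), and *SOL4*, a paralog of *SOL3*, of 0.63 (SE 0.20).

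Of 26 regulators of these pathways, 0 passed the adjusted test, the median was −0.03 and 3 were separated, *CAT8* upwards and *SNF1* and *THI2* downwards, which is 11.5% beside 18.4% of all genes. *CAT8*, the activator of gluconeogenic genes, read 4.97, 5.12 and 4.91 without and 5.34, 5.79 and 5.26 with neomycin (0.46, SE 0.15, adjusted p = 0.279), not far above the background mark. *SNF1*, the kinase needed to lift glucose repression, had a value of −0.26 (SE 0.11), and *GCR1*, the activator of glycolytic genes, of −0.27 (SE 0.22). A list of 18 other glucose-repressed genes, such as *ICL1*, the isocitrate lyase (0.05, SE 0.13), and *SUC2*, the invertase (−0.35, SE 0.14), had a median of −0.08, with 0 genes past the adjusted test, *ADY2* separated upwards and *YAT1* downwards, or 11.1% of the list.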

How the data were processed

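The data are 6 Affymetrix Yeast Genome 2.0 arrays, 3 of untreated and 3 of neomycin-treated cultures, processed by the authors with GCRMA (version not given in the sources used here). The deposited values are log2 GCRMA signals of 5716 probe sets, from 2.22 to 14.31, with background adjustment and normalisation between arrays already done. GEO's platform annotation names 1 gene for 5498 probe sets and none for 218, and none names several. For the 47 genes with several probe sets that with the highest mean was taken, which gave 5449 genes.

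The 2-sided test between groups was limma's (version 3.58.1, R 4.3.3, eBayes with 4.03 prior degrees of freedom), with Benjamini-Hochberg adjustment over all genes. SE and 95% intervals are limma's moderated ones for genes. For isozyme pairs the intervals come from the pooled spread of 3 arrays per group. The study's ratio criteria were rebuilt with a Cyber-T test on log2 values (confidence 10, 22 degrees of freedom), settings its methods do not state. The scripts were tested on simulated data. The number of arrays limits the precision, and array files before GCRMA, with any mark of saturation, were not used here.

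The members and lists were chosen with earlier results of these data known. Named with values were members past a test or separated, the 10 largest changes and the isozyme pairs, and further members and genes after their values were seen. Alternatives were quantile normalisation, centring on the median, the mean of probe sets, a replicate block, an intensity trend, a robust prior, a threshold of 0.1, leaving out the dimmest 25% of genes and leaving out each array. The ratio criteria were also applied with limma's p, with a confidence of 3 and with geometric means.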

Additional observations from a re-analysis of the deposited data

How the results depend on the processing

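Of the 56 members, 0 passed limma's adjusted test under the replicate block, quantile normalisation, centring on the median, the mean of probe sets, an intensity trend, a robust prior or an adjusted p under 0.1. Leaving out the dimmest 25% of genes also removes members, *PKP2*, *ALD3* and *GPM2* among them, and 0 of those kept passed. With each array left out in turn, 0 to 2 passed upwards and 0 downwards. The 2 were *PKP2* and *ALD3* without neomycin replicate 1, where 2.61% of all genes were called. By the ratio criteria 1 member, *PKP2*, was induced after quantile normalisation (ratio 1.701) and 1, again *PKP2*, after centring (1.72), and 0 to 3 with an array left out. The 3 were *ADH5*, *ALD3* and *PKP2*, again without neomycin replicate 1. The shares of all genes past the ratio criteria were not determined in these settings, so the counts have no such share beside them. The count of members separated upwards, 2, was 6 after quantile normalisation, 7 after centring and 1 without the dimmest genes. In either direction 10 of the 56 members were separated after quantile normalisation and 10 after centring, beside 18.6% and 18.2% of all genes. Without the dimmest genes 4 of the members kept were separated, beside 19.5% of the genes kept. With an array left out, the count separated upwards ran from 3 to 9, highest without neomycin replicate 1. The count separated downwards ran from 3 to 12, highest without neomycin replicate 2. In either direction 16 and 15 of the 56 members were separated in these fits, beside 31.1% and 35.4% of all genes. Fewer arrays make separation easier.

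Whether arrays of the same replicate number share more than that number was not tested. Their deviations from the group means correlated across genes at −0.0003, −0.38 and 0.44, and not every array correlated best with its own number. With the replicate number as a block, limma called 0 genes of all in either direction, and the smallest adjusted p of a member was 0.214, for *ALD4*.

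Signs of log2 fold changes were followed only for the separated members, those with the largest changes and the genes and differences of the isozyme pairs. Among these, values changed sign for the genes and pairs that follow. The list is not complete for the members, since direction also changed outside it. Without untreated replicate 1, for example, the ratio of mean signals went from 1.01 to 0.981 for *FBA1* and from 1.03 to 0.965 for *SOL3*. After quantile normalisation the log2 fold change was −0.023 for *CDC19*, −0.031 for *ADH1*, −0.0041 for *ALD6*, 0.015 for *ACS1*, 0.026 for *GND1* and −0.0062 for *TKL1*. After centring it was 0.0044 for *HXK2*, 0.032 for *GPM1*, 0.016 for *ACS1*, 0.035 for *GND1* and 0.014 for *GND2*. With each array left out in turn, the value ran from −0.48 to 0.013 for *HXK1*, −0.12 to 0.076 for *HXK2*, −0.038 to 0.10 for *TDH3*, −0.039 to 0.042 for *GPM1*, −0.053 to 0.10 for *ENO2*, −0.0034 to 0.071 for *CDC19*, −0.23 to 0.13 for *PYK2*, −0.078 to 0.19 for *PYC1* and −0.024 to 0.026 for *ADH1*. For the others it ran from −0.27 to 0.15 for *ADH2*, −0.25 to 0.22 for *ALD6*, −0.10 to 0.084 for *ACS1*, −0.063 to 0.19 for *ACS2*, −0.065 to 0.036 for *GND1*, −0.12 to 0.074 for *GND2*, −0.065 to 0.048 for *TKL1*, −0.0063 to 0.038 for *TAL1* and −0.022 to 0.34 for *GPD1*. The difference within pairs ran from −0.29 to 0.083 for *PYK2* minus *CDC19*, −0.0060 to 0.14 for *PDC5* minus *PDC1*, −0.29 to 0.13 for *ADH2* minus *ADH1*, −0.14 to 0.41 for *ALD2* minus *ALD6*, −0.16 to 0.027 for *ACS1* minus *ACS2*, −0.15 to 0.051 for *GND2* minus *GND1* and −0.41 to 0.015 for *PYC1* minus *PYC2*. The cause of these reversals was not tested.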
